A study of Mus musculus with 6 samples.

Results

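The 10 genes described here encode parts of the megakaryocyte and the blood platelet. They were chosen by symbol (Pf4, Ppbp, Itga2b, Itgb3, Gp1ba, Gp1bb, Gp6, Gp9, Vwf and Tubb1), and all 10 were found among the 46983 genes of the deposited tables. Megakaryocytes are the large bone marrow cells that shed platelets. Platelets carry granules with chemokines and von Willebrand factor, a glycoprotein Ib-IX complex that holds on to von Willebrand factor, the collagen receptor glycoprotein VI, the fibrinogen receptor integrin alpha IIb beta 3, and a ring of microtubules built with a tubulin of their own.

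Messenger RNA came from colonies grown in vitro from lineage-depleted bone marrow of C57BL/6 mice aged 8 to 11 weeks, which were harvested after 6 to 7 days of growth. The methylcellulose medium held the cytokines IL-3 and IL-6 together with mSCF (mouse stem cell factor). The 3 Psip1-KO samples (KO) come from mice that the series design calls PsipVav/Vav. The Vav promoter is widely used to drive Cre in blood cells, but the labels do not name the driver. The 3 WT samples are called wild type in the labels, while the design gives their mice as PsipFl/Fl, homozygous for a floxed Psip1 allele. Psip1 encodes LEDGF, a chromatin protein, and the series title concerns its isoform p75 in blood formation and in MLL-rearranged leukaemia. Thrombopoietin, the main growth factor of megakaryocytes, is not among the factors named. The labels do not say whether samples of a group came from separate animals, so p-values measure only the spread between these samples. That spread is not purely technical, since reads of Xist and of the Y-linked gene Eif2s3y differed within both groups. Eif2s3y had 0, 865 and 1144 reads in KO replicates 1, 2 and 3 and 1078, 0 and 4 reads in WT replicates 1, 2 and 3, and Xist is given further on.

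Depth was 7056614 to 15569088 gene reads in 5 libraries and 27909 in WT replicate 3, where a count of 0 allows up to 89.6 normalised CPM (the level of 3 reads; CPM is counts per 1e+06 reads of the effective library size). WT replicate 3 is therefore given in reads, and its intervals and floors cover counting error only. Psip1 itself stood at 14.8, 17.6 and 16.3 CPM in KO and at 89.3 and 70.0 CPM in WT replicates 1 and 2, with 3 reads in WT replicate 3 (log2 fold change -2.32, SE 0.32, adjusted p = 0.0599 by edgeR). KO replicate 2 stood apart by its mitochondrial reads (15.7% of gene reads, against 1.26% to 1.84% in the other deep libraries and 9.52% in WT replicate 3). Markers of neutrophils, summed over 10 genes that were all read, ran from 35335 to 89035 CPM in KO and from 44867 to 99967 CPM in the deep WT libraries. Those of mast cells and basophils (10 of 10 read) ran from 2669 to 8282 CPM in KO and from 3620 to 4980 CPM in WT.

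The platelet genes took a small share of these myeloid colonies. Together they held 0.121%, 0.121% and 0.0842% of gene reads in KO replicates 1, 2 and 3, against 0.0820% and 0.117% in WT replicates 1 and 2. WT replicate 3 held 30 such reads, or 0.107% (exact 95% binomial interval 0.0725% to 0.153%). Every member was read in each of the 5 deep libraries, and the KO and WT shares overlapped. In a mixed culture, fewer cells of a type and less RNA per cell cannot be told apart.

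The stretches of DNA before 4 of the genes are shown because Pf4, Gp1bb and Gp9 varied together from library to library, while Gp1ba, whose protein is joined to those of Gp1bb and Gp9 in 1 receptor, did not follow them (values below). Each is the 250 bases before the gene's start in RefSeq (build GRCm38.p6), read 5′ to 3′ on the strand of the gene, and the capitals mark matches to motifs of GATA and ETS factors on either strand. GATA1 and the ETS factor FLI1 are known activators of platelet genes. The places are chr5:90772185-90772434 (plus strand) for Pf4, chr16:18622404-18622653 (minus strand) for Gp1bb, chr6:87777820-87778069 (plus strand) for Gp9 and chr11:70638872-70639121 (plus strand) for Gp1ba.
Pf4: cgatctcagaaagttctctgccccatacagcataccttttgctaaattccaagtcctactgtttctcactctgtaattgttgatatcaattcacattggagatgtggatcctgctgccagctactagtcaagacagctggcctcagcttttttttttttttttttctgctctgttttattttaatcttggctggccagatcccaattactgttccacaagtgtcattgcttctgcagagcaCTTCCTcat
Gp1bb: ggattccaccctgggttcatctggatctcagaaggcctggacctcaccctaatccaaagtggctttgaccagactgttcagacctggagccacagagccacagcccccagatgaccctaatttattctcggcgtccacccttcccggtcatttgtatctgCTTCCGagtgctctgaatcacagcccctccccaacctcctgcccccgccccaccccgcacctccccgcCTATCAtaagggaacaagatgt
Gp9: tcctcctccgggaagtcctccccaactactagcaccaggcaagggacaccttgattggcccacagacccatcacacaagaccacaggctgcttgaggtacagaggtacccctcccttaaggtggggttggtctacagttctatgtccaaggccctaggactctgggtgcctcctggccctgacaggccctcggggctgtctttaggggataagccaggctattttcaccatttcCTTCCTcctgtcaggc
Gp1ba: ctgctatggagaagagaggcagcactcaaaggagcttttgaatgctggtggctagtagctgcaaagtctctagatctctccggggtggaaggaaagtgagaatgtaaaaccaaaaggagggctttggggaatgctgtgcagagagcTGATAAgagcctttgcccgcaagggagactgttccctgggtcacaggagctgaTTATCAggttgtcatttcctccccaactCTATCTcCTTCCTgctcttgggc

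The GATA motif was searched as AGATAA or else AGATAG, and likewise as TGATAA or else TGATAG, and the ETS motif as AGGAAG or else CGGAAG, each on both strands, and no GATA match overlapped an ETS match in the 4 stretches shown. Pf4 held 1 ETS match, 9 bases before the start, and Gp9 held 1, 16 bases before it. Gp1bb held 1 GATA match 22 bases and 1 ETS match 90 bases before the start. Gp1ba held 3 GATA matches, 104, 51 and 23 bases before the start, and 1 ETS match 16 bases before it. Of the 8 members with a RefSeq stretch, 3 held a GATA match and 6 an ETS match, where 26.5% and 39.2% of all 32851 stretches of this length did. Itgb3 and Vwf had no entry. A match is a run of letters and shows no binding, and the part of these motifs in the levels of the genes was not tested.

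Granule genes come first. Pf4 encodes platelet factor 4, a chemokine of the alpha granule, and lies on chromosome 5 (90772435 to 90773383, plus strand). It stood at 226, 145 and 42.8 CPM in KO replicates 1, 2 and 3, and at 56.7 and 258 CPM in WT replicates 1 and 2, with 9 reads in WT replicate 3 (exact 95% interval 4.12 to 17.1 reads). Low and high libraries occurred in both genotypes. Among the deep ones, KO replicate 3 and WT replicate 1 were at the bottom and WT replicate 2 and KO replicate 1 at the top. The reads of WT replicate 3 come to 269 CPM (exact 95% interval 123 to 510 CPM), above KO replicate 3 and WT replicate 1. The 5 deep libraries spanned 6.04-fold. The fitted log2 fold change of KO over WT was -0.36 (SE 0.67, 95% interval -1.83 to 1.11) by the quasi-likelihood test of edgeR, with an adjusted p = 1.00. Without WT replicate 3 it was -0.20 (SE 0.80).

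Ppbp encodes the precursor of CXCL7, a second granule chemokine, and starts the same stretch of chromosome 5, with 2371 bases between its end (90770063) and the start of Pf4. It stood at 152, 38.8 and 34.7 CPM in KO and at 54.0 and 137 CPM in WT replicates 1 and 2, with 2 reads in WT replicate 3. KO replicate 1 and WT replicate 2 were again the highest, but KO replicate 2, the middle library for Pf4, was among the lowest for Ppbp. The log2 fold change was -0.28 (SE 0.60, 95% interval -1.61 to 1.04, adjusted p = 1.00 by edgeR), and -0.34 (SE 0.73) without WT replicate 3. The level of Pf4 per kilobase of exon was 2.22, 5.63 and 1.85 times that of Ppbp in KO, and 1.58 and 2.83 times in WT.

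Vwf encodes von Willebrand factor, which platelets store in alpha granules and which endothelial cells make as well (chromosome 6, 125546774 to 125686679, plus strand). It stood at 157, 200 and 298 CPM in KO replicates 1, 2 and 3, and at 197 and 90.2 CPM in WT replicates 1 and 2, with 0 reads in WT replicate 3. Here KO replicate 3 was the highest and WT replicate 2 the lowest, close to the reverse of Pf4, and KO and WT overlapped through WT replicate 1. Its log2 fold change of 0.82 (SE 0.53, 95% interval -0.33 to 1.98) had the largest size among the 10 genes, with an unadjusted p = 0.146 and an adjusted p = 1.00 by edgeR. The 0 reads in WT replicate 3 (exact 95% limit 110 CPM) cannot tell its level from that of WT replicate 2. By counting error alone, that limit lies below the levels of WT replicate 1 and of each KO library. The mean of the deep WT libraries would give 4.81 reads in WT replicate 3. Without WT replicate 3 the log2 fold change was 0.60 (SE 0.45, adjusted p = 1.00 by edgeR). Without WT replicate 1 it was 1.59, with an adjusted p = 0.525. Of 10 endothelial markers, 3 (Emcn, Robo4 and Sox17) had 0 reads in all libraries and Cdh5, which defines endothelium, had 4, 1 and 8 reads in KO and 0 and 1 in WT replicates 1 and 2. Other markers of the list were read, with Flt1 at 279, 28 and 260 reads in KO and 239 and 411 in WT, and Egfl7 at 177, 49 and 48 reads in KO and 41 and 168 in WT. Tie1 had 124, 21 and 64 reads in KO and 27 and 37 in WT, and Kdr had 65, 8 and 116 reads in KO and 58 and 50 in WT. Tek had 2, 2 and 11 reads in KO and 11 and 2 in WT, and Plvap had 10, 6 and 3 reads in KO and 1 and 8 in WT. The 10 markers summed to 52.0, 18.2 and 33.6 CPM in KO and to 27.4 and 66.3 CPM in WT, and were lowest in KO replicate 2 and highest in WT replicate 2. Their part in the level of Vwf was not tested.

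**Figure D1:**
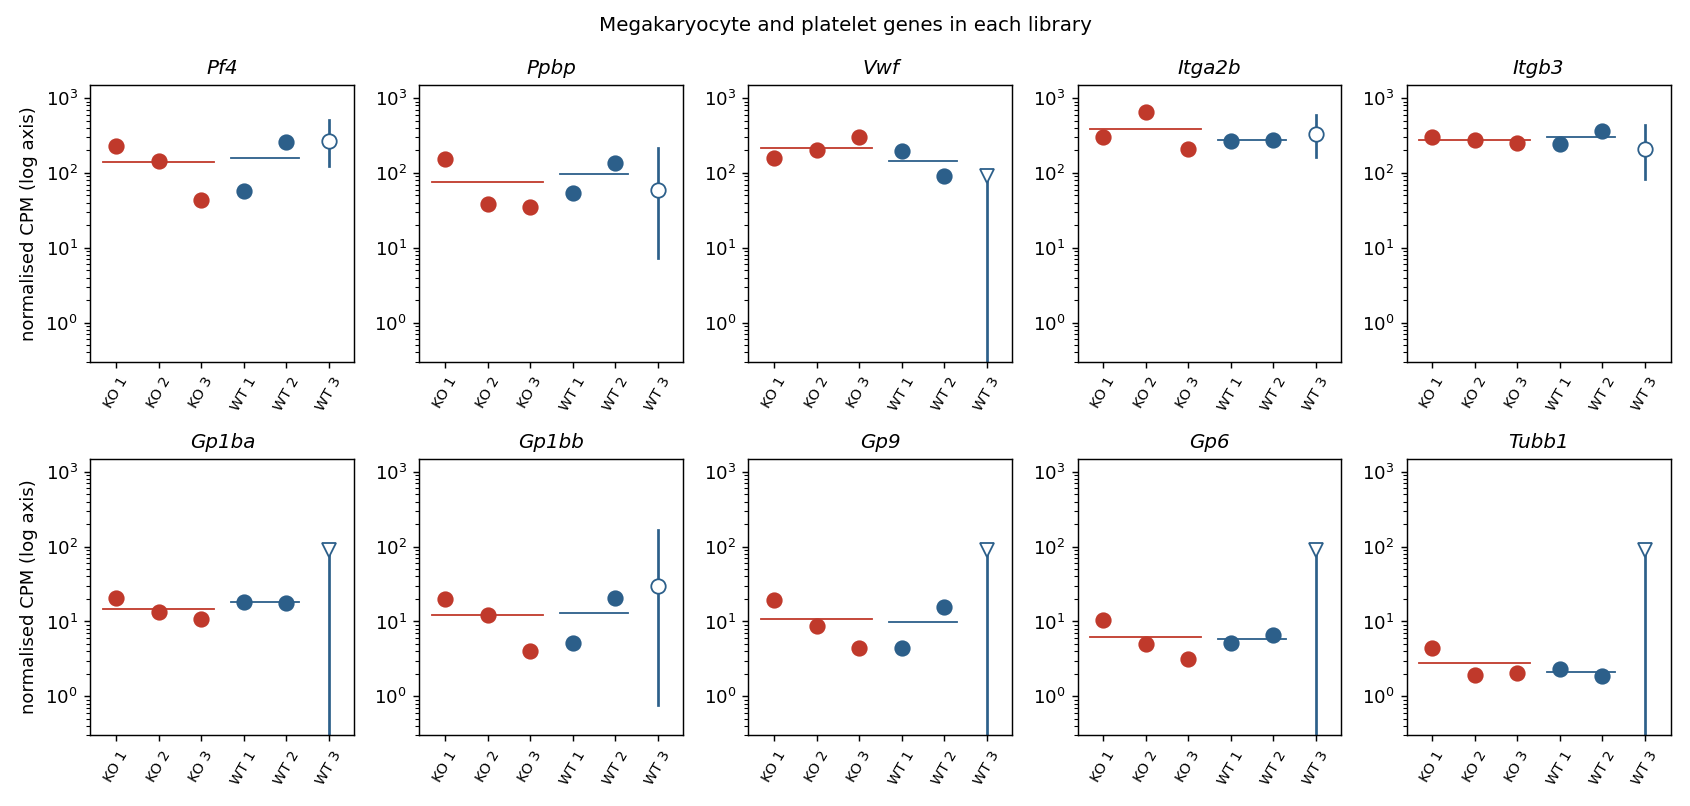
Normalised CPM on a log axis of the 10 genes in each library, KO (red) left of WT (blue), with lines at the mean of the 3 KO and of the 2 deep WT libraries. Open circles are WT replicate 3 with its exact 95% interval, and open triangles mark 89.6 CPM, the fixed floor for its 0 reads. The KO points and the deep WT points overlap for every gene.

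The fibrinogen receptor genes had the most reads of the 10 genes over the deep libraries together, though Vwf had more in KO replicate 3, and 1 library set Itga2b apart. Itga2b encodes integrin alpha IIb (CD41), which also marks early blood progenitors (chromosome 11, 102453297 to 102470122, minus strand). It stood at 299, 650 and 211 CPM in KO replicates 1, 2 and 3, and at 267 and 278 CPM in WT replicates 1 and 2, with 11 reads in WT replicate 3. KO replicate 2 lay above all others, and the rest lay within a narrow band that holds both genotypes. The log2 fold change was 0.44 (SE 0.44, 95% interval -0.52 to 1.40, adjusted p = 1.00 by edgeR), 0.50 (SE 0.50) without WT replicate 3 and -0.15 without KO replicate 2. Among the deep libraries, KO replicate 2 is the one with 15.7% mitochondrial reads and the highest summed CPM of mast cell and basophil markers (8282 CPM). Of these markers Cpa3, Hdc, Mcpt8 and Tpsb2 were highest there, while Kit, Fcer1a, Ms4a2, Mcpt4, Cma1 and Tpsab1 were not. The part of the mitochondrial reads and of these markers in its high Itga2b was not tested.

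Itgb3 encodes the beta 3 subunit, which pairs with alpha IIb in platelets and with alpha V in other cells (chromosome 11, 104608000 to 104670476, plus strand). Its levels were 298, 279 and 254 CPM in KO and 243 and 368 CPM in WT replicates 1 and 2, with 7 reads in WT replicate 3. The deep libraries differed by 1.51-fold, the narrowest span of the 10 genes, and the groups overlapped. The log2 fold change of -0.04 (SE 0.34, 95% interval -0.78 to 0.70, adjusted p = 1.00 by edgeR) was closest to 0, and its interval leaves room for KO to be 0.583 to 1.62 times WT. Per kilobase, Itga2b stood at 1.09, 2.52 and 0.899 times Itgb3 in KO, and at 1.19 and 0.819 times in WT, so the subunits had similar levels except in KO replicate 2. Itgav, the other partner, stood at 37.0, 43.5 and 83.3 CPM in KO and at 89.4 and 30.0 CPM in WT (log2 fold change -0.02, SE 0.52).

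Genes of the glycoprotein Ib-IX complex, the receptor for von Willebrand factor, were read at a low level. Gp1ba encodes its ligand-binding alpha chain (chromosome 11, 70639122 to 70642036, plus strand), and stood at 20.5, 13.4 and 10.7 CPM in KO and at 18.4 and 17.6 CPM in WT replicates 1 and 2. The KO libraries fell on both sides of the WT pair. The log2 fold change was -0.22 (SE 0.42, 95% interval -1.14 to 0.71, adjusted p = 1.00 by edgeR). WT replicate 3 had 0 reads, where the mean of the deep WT libraries would give 0.604.

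Gp1bb encodes the beta chain that is linked to it (chromosome 16, 18620317 to 18622403, minus strand), and stood at 20.1, 12.02 and 4.02 CPM in KO and at 5.08 and 20.7 CPM in WT, with 1 read in WT replicate 3. Gp9 encodes glycoprotein IX, which completes the complex (chromosome 6, 87778072 to 87779768, plus strand), and stood at 19.3, 8.70 and 4.49 CPM in KO and at 4.35 and 15.5 CPM in WT, with 0 reads in WT replicate 3. Both followed Pf4, high in KO replicate 1 and WT replicate 2 and low in KO replicate 3 and WT replicate 1. Their log2 fold changes were -0.16 (SE 0.68) and 0.17 (SE 0.66), each with an adjusted p = 1.00 by edgeR, and -0.10 and 0.13 without WT replicate 3. The count of Gp1bb is uncertain, since 91.1% of its exon bases also belong to exons of Sept5, a neighbour on the same strand in GENCODE M21, and STAR's counter gives reads in shared bases to neither gene. Sept5 stood at 198, 67.1 and 100.3 CPM in KO and at 119 and 178 CPM in WT, a different order of libraries.

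Within the complex the chains did not keep 1 ratio. The level of Gp1ba per kilobase was 0.786, 0.859 and 2.04 times that of Gp1bb in KO, and 2.79 and 0.655 times in WT, a span of 4.25-fold. Because of the bases that Gp1bb shares with Sept5, the size of such ratios cannot be read, and only their variation between libraries can. Gp9 stayed between 1.71 and 2.64 times Gp1bb in KO and between 1.77 and 2.03 times in WT. Gp5, which encodes the subunit that joins the complex more loosely, stood at 24.6, 13.9 and 6.60 CPM in KO and at 12.9 and 27.8 CPM in WT (log2 fold change -0.37, SE 0.55).

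Gp6 and Tubb1 were the scarcest. Gp6 encodes glycoprotein VI, the collagen receptor (chromosome 7, 4363965 to 4397744, minus strand), and held 132, 32 and 48 reads in KO replicates 1, 2 and 3 and 70 and 68 reads in WT replicates 1 and 2, or 10.4, 5.06 and 3.17 CPM in KO and 5.08 and 6.66 CPM in WT. Tubb1 encodes beta-1 tubulin of the platelet's microtubule ring (chromosome 2, 174450695 to 174457882, plus strand), and held 56, 12 and 31 reads in KO and 32 and 19 in WT, or 4.41, 1.90 and 2.05 CPM in KO and 2.32 and 1.86 CPM in WT. KO replicate 1 was the highest library for both, and the other 2 KO libraries lay below both WT ones for Gp6 and between them for Tubb1. Both had 0 reads in WT replicate 3. The log2 fold changes were 0.12 (SE 0.56) for Gp6 and 0.43 (SE 0.56) for Tubb1, with adjusted p = 1.00 each by edgeR, and 0.08 and 0.42 without WT replicate 3.

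Over the 10 genes, 5 had a positive and 5 a negative log2 fold change. The median was 0.04, where all 12292 genes tested had a median of 0.01. It was -0.01 without WT replicate 3 and -0.08 by limma-voom, where all genes tested had a median of -0.02 each time. All 10 passed the filter on low counts. None of them passed an adjusted p of 0.05 by edgeR, against 0% of all genes tested, and none had an unadjusted p under 0.05, against 1.45% of all genes. Without WT replicate 3, edgeR again called 0 of the 10, against 0% of all genes, with 0 at an unadjusted p under 0.05, against 1.07%. DESeq2 called 0 of the 10, against 0.0045% of all genes, and 0 against 0.054% without WT replicate 3. At an unadjusted p under 0.05 it also found 0, against 0.171% and 0.999% of all genes. The limma-voom fit called 0 of the 10, against 0% of all genes, with 0 at an unadjusted p under 0.05, against 0.887%. The 3 KO and the 2 deep WT libraries overlapped for each of the 10, while 8.66% of all genes tested showed no overlap. The 95% intervals were wide. They reached a KO level of 0.282 times WT for Pf4 at the low end and of 3.94 times WT for Vwf at the high end, so differences of such sizes cannot be told from none in these libraries.

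**Figure D2:**
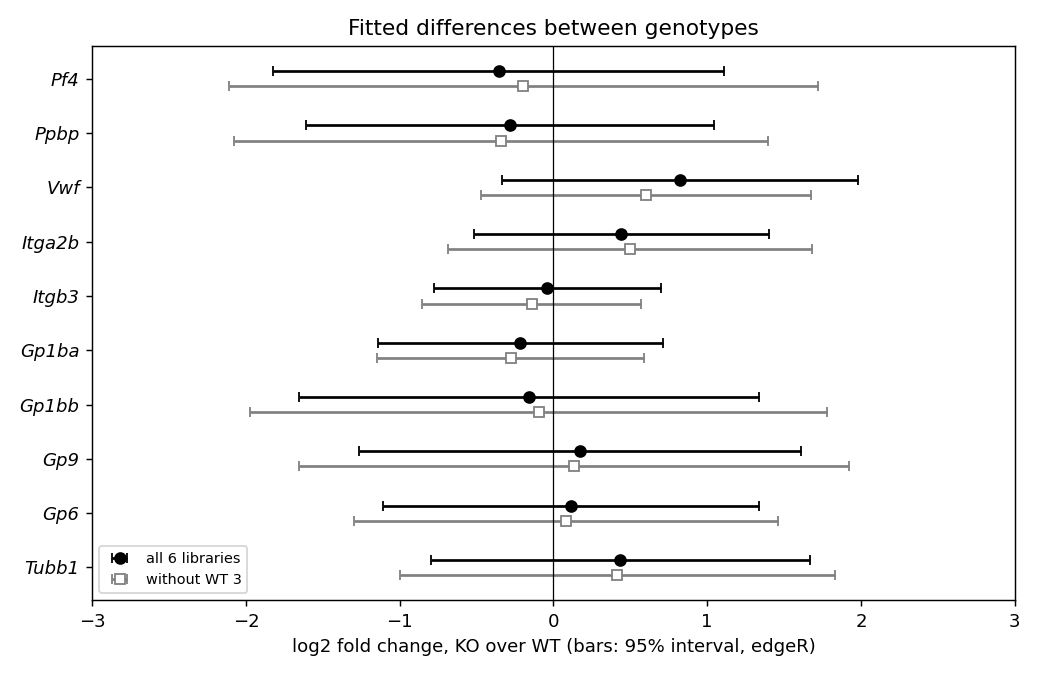
Log2 fold change of KO over WT for each gene with its 95% interval, from edgeR with all 6 libraries (filled circles) and without WT replicate 3 (open squares). Every interval crosses 0, and Vwf lies farthest from it, at 0.82 with all libraries and 0.60 without WT replicate 3.

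Per kilobase of exon, which allows genes to be set side by side, Pf4 had the highest level (202 ± 134 CPM per kilobase, SD, n = 5 deep libraries), followed by Ppbp (77.0 ± 52.4), Itga2b (62.6 ± 32.2) and Itgb3 (48.9 ± 8.35). Gp9 (11.9 ± 7.59) and Vwf (11.7 ± 4.70) came next, then Gp1ba (5.94 ± 1.47), then Tubb1 (1.78 ± 0.766) and Gp6 (1.03 ± 0.459). Pf4 was above Ppbp in each of the 5 libraries. Ppbp and Itga2b, Itga2b and Itgb3, Gp9 and Vwf, and Tubb1 and Gp6 differed by less than the larger SD of the pair. Exon lengths are unions over all GENCODE M21 transcripts of a gene, 721 bases for Pf4 and 16064 for Vwf, and a gene's main transcript can be shorter. Gp1bb has no place in this order: over all its exon bases it stood at 5.93 ± 3.79 CPM per kilobase, which understates its level, since 91.1% of those bases are shared with Sept5.

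The spread within a genotype had a shape of its own. Likeness of 2 genes was measured as the root mean square difference of their log2 CPM over the 5 deep libraries, after each gene was centred on its mean, so that 0 means the same pattern. Among the 45 pairs of members the closest was Pf4 and Gp1bb, at 0.09 log2 units, followed by Gp1bb and Gp9 at 0.23. The farthest was Pf4 and Vwf, at 1.55. The level of Gp1bb per kilobase was 0.0307, 0.0286 and 0.0325 times that of Pf4 in KO, and 0.0309 and 0.0276 times in WT, almost constant while Pf4 itself varied 6.04-fold (the size of this ratio, too, rests on the uncertain count of Gp1bb). The level of Pf4 was 32.0, 16.2 and 3.20 times that of Vwf in KO, and 6.42 and 63.9 times in WT. These likenesses rest on 5 libraries and are descriptions with no test.

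**Figure D3:**
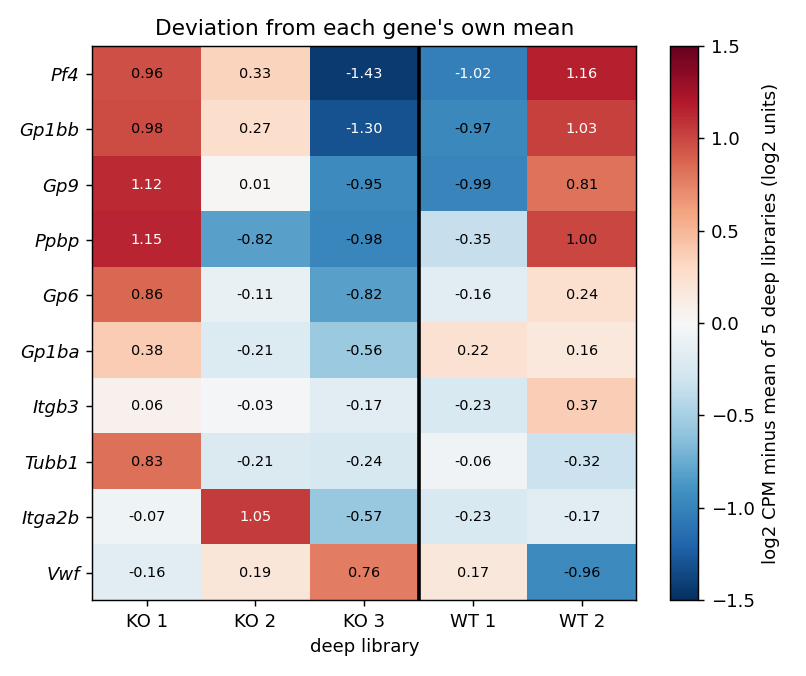
Log2 CPM of each gene minus its own mean over the 5 deep libraries, for KO replicates 1 to 3 and WT replicates 1 and 2 (columns, parted by a black line). Pf4, Gp1bb and Gp9 are red in KO replicate 1 and WT replicate 2 and blue in KO replicate 3 and WT replicate 1, Itga2b stands out in KO replicate 2 (1.05), and Vwf is red in KO replicate 3 (0.76) and blue in WT replicate 2 (-0.96).

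Other measures also differed between libraries, and some were high where Pf4 was high. Neutrophil markers summed to 89035, 41137 and 35335 CPM in KO replicates 1, 2 and 3 and to 44867 and 99967 CPM in WT replicates 1 and 2. Monocyte and macrophage markers (10 of 10 read) summed to 8076, 4790 and 12875 CPM in KO and to 13054 and 5651 CPM in WT. The sum was highest in KO replicate 3 and WT replicate 1, but most of it was Lyz2 (6500, 3233 and 10489 CPM in KO, 10826 and 4140 CPM in WT). Csf1r, Adgre1 and Cd14 were also highest in those libraries, while C1qa, C1qb, Mrc1, Cd68, Ly6c2 and Ms4a7 had other orders. Erythroid markers (11 of 11 read) summed to 53.4, 160 and 22.6 CPM in KO and to 50.1 and 170 CPM in WT, and did not follow Pf4, since KO replicate 1 lay close to WT replicate 1. Xist, the RNA of the inactive X chromosome, had 12107, 1 and 0 reads in KO and 1 and 5910 in the deep WT libraries. The deep libraries highest in Pf4, KO replicate 1 and WT replicate 2, were the only deep ones with more than 1 Xist read. WT replicate 3 did not follow this. It had 0 Xist reads, where the mean of the deep WT libraries would give 9.69, and 4 reads of Eif2s3y. Its 9 reads of Pf4 come to 269 CPM (exact interval 123 to 510 CPM). The part of these markers and of Xist in the levels of the platelet genes was not tested.

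Searched over 9836 other genes with a mean of at least 5 CPM, the gene most like Pf4 was Gp1bb, followed by Smim5 (0.16 log2 units) and Fah, the last enzyme of tyrosine breakdown (0.17). The median over all genes searched was 1.09. Gp9 was in place 18, Rasgrp2 (0.41) in place 64, Treml1 (a receptor of platelet granules, 0.44) in place 94 and Gp5 (0.46) in place 113. Tuba8 in place 138, F2rl3 in place 189, Alox12 in place 207 and Ptgs1 in place 284, from the further platelet lists below, came next. Farther off were Clec1b in place 482, Selp in place 506, Ppbp in place 523, Gp6 in place 615, Itgb3 in place 2224, Gp1ba in place 2404, Itga2b in place 3422 and Vwf in place 9050. Tubb1, under 5 CPM, was not among the genes searched. Other genes of the further lists lay far from Pf4, such as Itgav in place 9382 and Plek in place 9634. By list, 10 of 21 receptor and adhesion genes and 8 of 20 cytoskeleton and signalling genes were closer to Pf4 than to Vwf. The same held for 3 of 14 granule and secretion genes and 3 of 16 transcription factors, genes under 5 CPM included. Of all genes searched, 18.4% were closer to Pf4 than to Vwf. Most like Itga2b were Trim24, a transcriptional cofactor (0.09), Hmgb1, a chromatin protein whose many pseudogene copies make its count uncertain (0.10), and Taf1a, a factor of RNA polymerase I (0.11). Most like Itgb3 were Akr1b3, an aldose reductase (0.02), Cytip (0.03) and Lemd2, a protein of the nuclear envelope (0.03), each nearly level over the libraries.

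Further platelet and megakaryocyte genes were taken from 4 lists of 71 genes in all, of which 68 had enough reads to be tested. Again no gene passed the threshold by edgeR, DESeq2 or limma-voom, against 0% of all genes tested by edgeR, and an unadjusted p under 0.05 by edgeR was found for 2 of the 68 (F13a1 and Mef2c, both lower in KO), against 1.45% of all genes tested. KO and deep WT libraries did not overlap for 5 of the 68 (7.35%, against 8.66% of all genes tested). Fcer1g (the signalling chain that pairs with glycoprotein VI, named after its values were seen), Nbeal2 and Vps33b lay higher in KO, and F13a1 and Mef2c lower.

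Receptors and adhesion genes had 10 positive and 10 negative log2 fold changes among 20 tested, with a median of 0.09. Clec1b, the podoplanin receptor CLEC-2, stood at 14.2, 20.6 and 2.64 CPM in KO and at 2.03 and 13.5 CPM in WT (log2 fold change 0.71, SE 0.84), and Treml1 at 18.1, 24.5 and 5.34 CPM in KO and at 4.72 and 20.1 CPM in WT (0.41, SE 0.68). For both, KO replicate 2 was the highest library and WT replicate 1 the lowest. Selp, the P-selectin of granule membranes (-0.59, SE 0.66), P2ry12, an ADP receptor (-0.74, SE 0.58), Cd9, a tetraspanin (0.49, SE 0.36), and Itga2, a collagen-binding integrin (0.53, SE 0.52), had the lowest p in their directions, all with adjusted p = 1.00 by edgeR.

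Granule and secretion genes had 6 positive and 7 negative values among 13 tested, with a median of -0.05, and 4 positive and 9 negative values without WT replicate 3 (median -0.11). The median was -0.21 by limma-voom. F13a1 encodes a subunit of coagulation factor XIII, which platelets and monocytes both hold. It stood at 65.7, 27.7 and 36.4 CPM in KO and at 114 and 142 CPM in WT replicates 1 and 2, with 1 read in WT replicate 3, and each KO library lay below both deep WT libraries. Its log2 fold change was -1.42 (SE 0.43, unadjusted p = 0.00651, adjusted p = 1.00 by edgeR). Nbeal2, which is needed to form alpha granules, was at 0.41 (SE 0.35), Vps33b, a factor of granule trafficking, at 0.29 (SE 0.33), and Pdgfb, a growth factor chain, at -0.50 (SE 0.57).

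Cytoskeleton and signalling genes had 13 positive and 6 negative values among 19 tested (median 0.11), but 9 positive and 11 negative among 20 without WT replicate 3 (median -0.10). Fyb, an adaptor upstream of the fibrinogen receptor (0.57, SE 0.47), the kinase gene Syk (0.34, SE 0.47), the tubulin gene Tuba8 (-0.58, SE 0.53) and Fermt3, an activator of integrins (-0.22, SE 0.32), had the lowest p in their directions, with adjusted p = 1.00 by edgeR.

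Transcription factors of the lineage were read in every deep library of both genotypes, at levels that differed widely between genes. Of 16 tested, 10 had a positive and 6 a negative value (median 0.04), and 6 a positive and 10 a negative value without WT replicate 3 (median -0.04) or by limma-voom (median -0.04). Gata1 stood at 27.8, 49.4 and 27.2 CPM in KO and at 35.0 and 46.1 CPM in WT (log2 fold change -0.20, SE 0.37). Gata2, which mast cells also use, stood at 264, 897 and 211 CPM in KO and at 333 and 371 CPM in WT (0.29, SE 0.53), and like Itga2b it was highest in KO replicate 2. Fli1 (-0.12, SE 0.32), Runx1 (0.16, SE 0.38), Gfi1b (-0.07, SE 0.46) and Nfe2, the factor that drives platelet release (-0.34, SE 0.45), lay within 1 SE of 0. Mef2c, a factor of several blood lineages, stood at 9.83, 10.9 and 8.97 CPM in KO and at 22.7 and 17.4 CPM in WT, with no overlap between them (log2 fold change -1.05, SE 0.37, unadjusted p = 0.0155, adjusted p = 1.00 by edgeR).

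**Figure D4:**
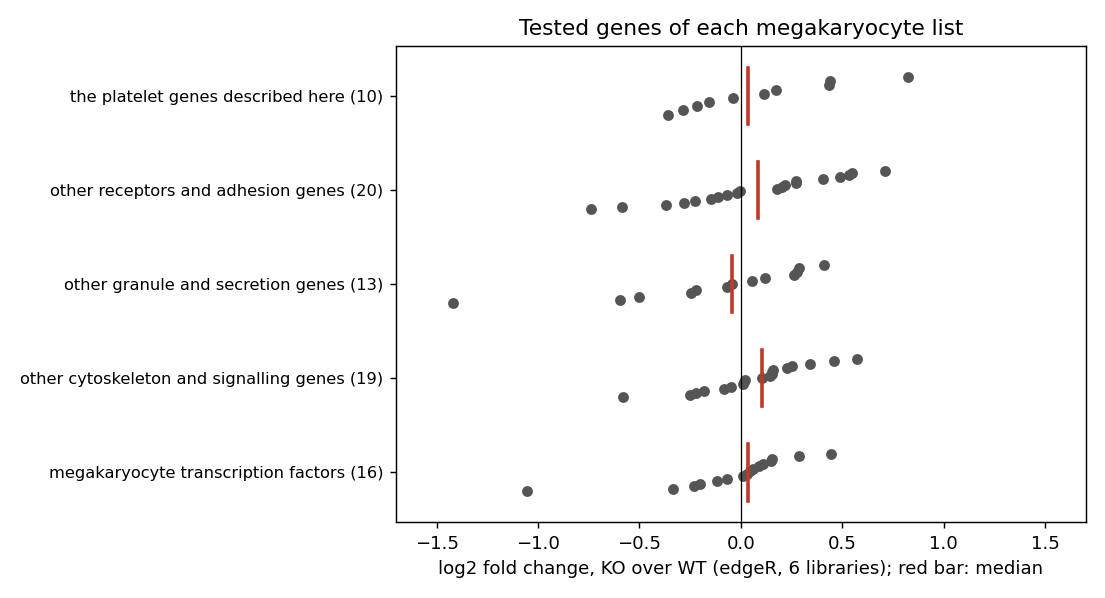
Log2 fold change of KO over WT (edgeR, 6 libraries) for every tested gene of the 10 platelet genes and of 4 further lists, with the number tested in brackets and a red bar at each median. The medians run from -0.05 to 0.11, and F13a1 (-1.42) and Mef2c (-1.05) lie farthest to the left of their lists.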

How the data were processed

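Stranded poly(A) libraries of 6 samples (HiSeq 2500) were deposited as raw read counts per gene, 1 file per run, in the layout of STAR's gene counter. STAR 2.5.1b, GRCm38 and DESeq2 (no role given) are named per the submitters' processing notes; no source used here gives the annotation. The deposited counts of column 4, on the strand opposite to the read, were used (95.6% to 97.5% of stranded gene reads), and both runs of WT replicate 3 were summed. Rows that name no gene (25.6% to 47.8% of reads) were left out. Of 46983 identifiers, 46488 matched a symbol, and coordinates were taken from GENCODE M21.

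Counts were filtered with filterByExpr, scaled by TMM and tested with edgeR 4.0.16 (glmQLFit, robust, glmQLFTest, two-sided, genotype only) over all genes, with Benjamini-Hochberg adjustment and a threshold of 0.05. SE is the log2 fold change over the root of F. Alternatives used DESeq2 1.42.0, limma-voom (limma 3.58.1), other scalings, filters and runs, counts without strand, a replicate block and left-out libraries. The genes, lists and tests were chosen with earlier results of these data known. All 10 members, Psip1 and a set of genes (Gp5, Clec1b, Itga2, Itgav, Selp, Treml1, Gata1, Gata2, Fli1, Nfe2, Gfi1b and Runx1) were named, with the 2 genes of lowest p per list and direction and the 3 genes most like Pf4, Itga2b and Itgb3 (prior count 2); some genes that this rule names are not reported here. Sept5, Xist, Eif2s3y, Cdh5, Emcn, Robo4, Sox17, Flt1, Egfl7, Tie1, Kdr, Fcer1g and Alox12 were named after their values were seen. So were Rasgrp2, F2rl3, Ptgs1, Plek, Tek, Plvap and the single markers of mast cells, basophils, monocytes and macrophages.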

Additional observations from a re-analysis of the deposited data

How the results depend on the processing

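None of the 10 genes, and none of the 68 to 71 further megakaryocyte genes tested, was called under any of 19 alternatives, of which 2 (edgeR with adjusted deviances, and 2 against 2 libraries without WT replicate 3 and KO replicate 2) were chosen after seeing the data. The members' median stayed within -0.50 (without KO replicate 1) and 0.45 (without WT replicate 2), less than the SD of 0.804 between KO libraries. The number of genes called among all genes was 0, but 2 with library size only, 9 without a low-count filter, 1 with DESeq2 (where the median of all 22237 genes was at -0.32), 12 with DESeq2 and no WT replicate 3, 13 with WT replicate 3 taken from its second run, and 0 to 5 with 1 library left out. With the replicate number as a block it was 13, with 0 members called and a median of 0.31. Same-numbered samples deviated in opposite directions (correlations of -0.37, -0.14 and -0.31 over 12292 genes). The best match of KO replicates 1, 2 and 3 was WT replicate 2 (0.47), 3 (0.35) and 1 (0.64). The labels do not state that the numbers pair the samples. These correlations cannot settle it, since deviations are taken from group means and WT replicate 3 has 27909 gene reads. Of 190 member values 19 changed sign, and the cause was not tested. With the block, Itgb3 was at 0.036 and Gp1bb at 0.31; with only the second run Itgb3 was at 0.027; with limma-voom Gp6 was at -0.10; in 2 against 2 Itga2b was at -0.10. With 1 library left out, values ran from -0.93 to 0.45 for Pf4, -1.31 to 0.47 for Ppbp, -0.15 to 0.77 for Itga2b, -0.14 to 0.28 for Itgb3, -0.79 to 1.04 for Gp1bb, -0.48 to 0.46 for Gp6, -0.54 to 1.35 for Gp9 and -0.064 to 0.66 for Tubb1. Gp1ba stayed negative and Vwf positive in all 19. The lowest unadjusted p were 0.00499 for Vwf (without WT replicate 1) and 0.0186 for Ppbp (without KO replicate 1). WT replicate 3 limits every WT value under 89.6 CPM.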

Other observations

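Reads on the strand opposite to each gene were few, at most 38 per library for any of the 10 genes, but for Gp1ba they were not small beside its own. Gp1ba had 11, 18 and 29 such reads in KO replicates 1, 2 and 3, beside 261, 85 and 162 reads on its own strand, and 26 and 10 in WT replicates 1 and 2, beside 254 and 180. Alox12, the platelet lipoxygenase, was chosen after its values were seen, and stood at 29.5, 12.3 and 7.19 CPM in KO and at 3.27 and 21.3 CPM in WT, in an order of libraries like that of Pf4 (0.53 log2 units away, against a median of 1.09 over all genes searched).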
